A study of Mus musculus with 4 samples.

Results

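The genes described here encode the mitochondrial ribosomal proteins, taken as all genes whose symbol begins with Mrpl or Mrps followed by a digit. Of 22180 genes measured by a probe set of their own, 71 met this rule, 43 with an Mrpl symbol and 28 with an Mrps symbol, and no pseudogene was among them (0 excluded). Where a gene had several such probe sets, the one with the highest mean over the arrays was used. The choice rested on the symbol and not on any measured difference.

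The series compared colon tumours with normal colon in Dmt1F/F and Dmt1+/+ mice. The symbol of Dmt1 is Slc11a2, and the gene encodes an importer of ferrous iron. There were 4 Affymetrix whole-transcript arrays, 1 each for Dmt1F/F tumour, Dmt1F/F normal colon, Dmt1+/+ tumour and Dmt1+/+ normal colon. All mice were C57BL/6, 3 months old, and carried ApcF/+ together with CDX2, a label whose meaning is not spelled out; F conventionally marks an allele flanked by loxP sites, and Apc encodes a tumour suppressor that restrains Wnt signalling. The design text names 4 Dmt1F/F and 7 Dmt1+/+ animals, but the sources used here do not say which animals each array holds or if their RNA was combined. The labels do not state which cells delete the floxed alleles, and the tissue pieces hold epithelium together with stroma and immune cells.

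Mitochondria keep a small genome of their own and a dedicated ribosome, the mitoribosome, that translates its messages into core subunits of the respiratory chain and ATP synthase. The ribosomal RNAs of the mitoribosome are made in the mitochondrion, whereas every one of its proteins is encoded in the nucleus, made in the cytosol and imported. Some of these proteins have counterparts in bacterial ribosomes and others were added during the evolution of mitochondria. MRPL proteins belong to the large subunit, which forms peptide bonds, and MRPS proteins mostly to the small subunit, which decodes the message; MRPS30 and MRPS18A are exceptions that sit in the large subunit. MRPS36 carries the family's name but is now known as a component of the 2-oxoglutarate dehydrogenase complex, and it was not placed in a subunit here.

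Values are log2 signals, and a log2 difference of 1 is 2-fold. Medians over all probe sets were between 4.27 and 4.34 on the 4 arrays. A gene was kept for comparison if its highest value reached 4.67, the median of the gene means, which left 12060 genes and 66 of the 71 members. The 5 members below this level were Mrpl27, Mrpl28, Mrps12, Mrps14 and Mrps36. Slc11a2, the targeted gene, was lower in Dmt1F/F mice: it was at 6.19 in Dmt1F/F tumour against 6.64 in Dmt1+/+ tumour, and at 6.13 in Dmt1F/F against 6.51 in Dmt1+/+ normal colon. Its fitted difference was -0.41 (SE 0.12), with a limma adjusted p of 0.564, so it did not pass the test, and where the probes lie relative to the floxed exons is not given. Among the marker lists, 8 of 9 Wnt-driven tumour markers and 6 of 10 proliferation markers rose in tumours, while 6 of 14 colon epithelium markers and 4 of 5 adipocyte markers fell, at an adjusted p that 11% of all genes passed upward and 8.23% downward. Of the fibroblast markers 6 of 8 rose and 1 fell, 3 of 6 T and NK cell markers fell and 3 of 6 distal colon markers rose. Neutrophils and macrophages had 2 of 7 rises each and endothelium 1 of 5, with 0 falls. Of 8 smooth muscle and 7 B and plasma cell markers 0 passed, and of the enteric neuron and glia markers 0 were kept. The summed linear signal of the colon epithelium markers was 21266 in Dmt1F/F tumour against 27612 in Dmt1F/F normal colon, and 15050.5 in Dmt1+/+ tumour against 25909 in Dmt1+/+ normal colon. That of the Wnt-driven markers was 3377 against 477 in the Dmt1F/F tissues and 4560 against 475 in the Dmt1+/+ tissues. Fewer cells of a type and less RNA per cell cannot be told apart in such samples, and the part of cell content in the values below was not tested.

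Promoter windows show what the members share in sequence, a feature that the choice of genes did not use. RefSeq windows of build GRCm38.p6, from 250 bases before to 50 after the start, were found for 62 of the 71 members. Each was searched on both strands for 4 motifs: GCGCATGC, bound by NRF1, a regulator of many nuclear genes for mitochondrial proteins; CCGGAAG, bound by ETS factors such as GABPA; AAGATGGCG, bound by YY1; and CACGTG, the E-box bound by MYC and USF factors. These motifs do not contain one another. NRF1 matches on the 2 strands can overlap, because GCGCATGC ends with the letters GCATGC and its reverse complement, GCATGCGC, begins with them.

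The ETS motif was present in 22 of the 62 windows (35.5%), compared with 11.9% of 17491 windows of protein-coding genes and 9.12% of all 27025 windows. The YY1 motif was present in 8 members (12.9%), compared with 1.94% of protein-coding and 1.49% of all windows. In Mrpl35, Mrpl37, Mrpl42, Mrps18a, Mrps24 and Mrps27 the match begins 11 to 36 bases after the start. The motif holds the letters ATG, and whether these matches include the first codon was not checked. The NRF1 motif was in 7 members (11.3%), compared with 3.60% of protein-coding and 2.80% of all windows. The E-box share was close to the background, with 5 members (8.06%) against 7.90% of protein-coding and 7.24% of all windows. At least 1 of the 4 motifs was in 34 members (54.8%) and in 22.4% of protein-coding windows. A TATAAA box 15 to 40 bases before the start was in 0 of the 62 members and in 2.84% of protein-coding windows. Median GC content was 58.2% in members and 56.3% in protein-coding windows. A match is a description of the letters in the window and shows no binding in these tissues.

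**Figure D1:**
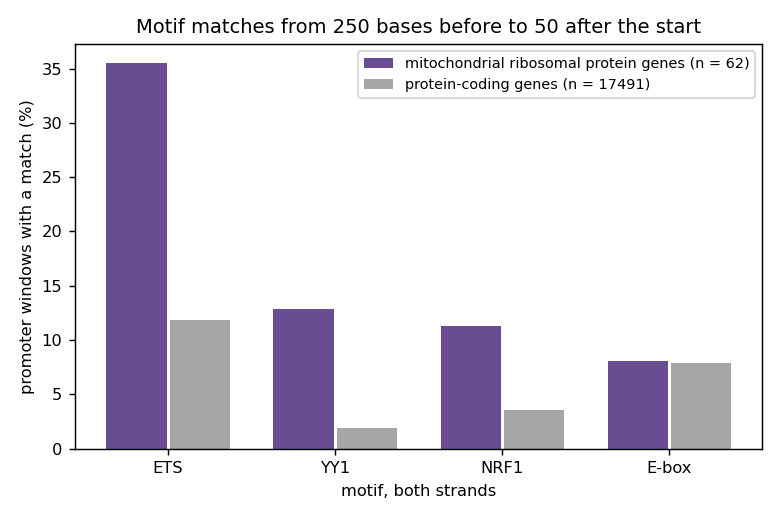
Share of promoter windows (%) that hold each motif on either strand, for 62 mitochondrial ribosomal protein genes (purple) and 17491 protein-coding genes (grey). The ETS bar stands at 35.5% for the members against 11.9%, and the E-box bars are nearly level, at 8.06% and 7.90%.

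The windows below are those of Mrps31, Mrpl12 and Mrpl42, the members with the lowest fitted tumour minus normal differences, of Mrpl32, which holds the most NRF1 matches, and of Mrps11, whose start lies 42 bases from that of another member, Mrpl46, on the opposite strand. Each is written 5′ to 3′ on the strand of its gene. Capitals mark the motif matches; the windows of Mrps31 and Mrpl12 hold none of the 4.
Mrps31: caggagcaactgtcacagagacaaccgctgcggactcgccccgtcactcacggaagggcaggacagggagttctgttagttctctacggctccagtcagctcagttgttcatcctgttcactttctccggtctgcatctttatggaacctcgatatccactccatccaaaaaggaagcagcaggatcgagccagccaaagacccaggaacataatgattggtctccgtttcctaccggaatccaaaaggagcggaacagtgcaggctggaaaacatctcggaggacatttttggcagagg
Mrpl12: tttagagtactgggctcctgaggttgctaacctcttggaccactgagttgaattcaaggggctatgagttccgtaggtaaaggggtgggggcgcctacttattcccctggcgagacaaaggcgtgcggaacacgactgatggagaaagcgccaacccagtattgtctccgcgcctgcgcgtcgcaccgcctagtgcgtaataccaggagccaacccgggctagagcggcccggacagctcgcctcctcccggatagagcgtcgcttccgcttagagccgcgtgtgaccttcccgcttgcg
Mrpl42: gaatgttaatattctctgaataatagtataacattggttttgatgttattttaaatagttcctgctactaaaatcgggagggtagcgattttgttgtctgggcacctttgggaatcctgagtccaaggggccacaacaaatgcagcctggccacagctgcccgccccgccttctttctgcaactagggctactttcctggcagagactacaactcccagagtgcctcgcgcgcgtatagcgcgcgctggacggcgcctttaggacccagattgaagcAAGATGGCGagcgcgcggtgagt
Mrpl32: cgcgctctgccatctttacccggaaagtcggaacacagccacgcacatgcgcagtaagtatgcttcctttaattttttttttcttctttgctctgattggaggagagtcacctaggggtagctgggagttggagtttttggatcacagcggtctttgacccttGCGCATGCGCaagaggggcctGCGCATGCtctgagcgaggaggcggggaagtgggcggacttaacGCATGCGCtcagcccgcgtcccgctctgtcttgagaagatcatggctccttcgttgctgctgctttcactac
Mrps11: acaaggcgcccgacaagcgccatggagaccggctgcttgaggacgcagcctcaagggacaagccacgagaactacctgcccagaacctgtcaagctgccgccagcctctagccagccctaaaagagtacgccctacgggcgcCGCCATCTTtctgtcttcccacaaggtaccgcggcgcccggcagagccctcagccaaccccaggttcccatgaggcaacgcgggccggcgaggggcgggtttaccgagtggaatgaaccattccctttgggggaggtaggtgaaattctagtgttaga

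In GRCm38.p6 these windows are chr8:22411090-22411389 on the plus strand for Mrps31, chr11:120484387-120484686 on the plus strand for Mrpl12, chr10:95501900-95502199 on the minus strand for Mrpl42, chr13:14612988-14613287 on the minus strand for Mrpl32 and chr7:78782881-78783180 on the plus strand for Mrps11. The Mrps31 window is that of a start inside the annotated gene, which begins at position 22410449. The capitals in Mrpl42 are a YY1 motif that begins 27 bases after the start. In Mrpl32 the NRF1 matches begin 87, 66 and 22 bases before the start, the first of them a pair of overlapping matches on both strands. The YY1 motif in the Mrps11 window lies on the opposite strand and begins 108 bases before the start. The start of Mrpl46 is only 42 bases away, so the motif falls inside Mrpl46, on the strand of that gene. Mrpl46 and Mrps11 share the DNA between their starts, and their products belong to different subunits.

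Such head-to-head starts were common among the members. Within 1000 bases, 23 of 62 members (37.1%) had a start on the opposite strand facing away from their own, compared with 13.2% of protein-coding genes. The partner was a protein-coding gene for 21 members (33.9%), compared with 8.47% of protein-coding genes. The values of the partners are given after those of the members.

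Between tumour and normal colon the mitochondrial ribosomal protein genes moved little. With limma fitted over the 4 arrays, with tissue and genotype as terms and p-values adjusted over all 12060 genes, 0 of the 66 members rose and 0 fell at an adjusted p of 0.05. Of all genes kept, 11% rose and 8.23% fell, 19.3% in all (1331 and 992 genes). At an unadjusted p under 0.05 there were 4 members (6.06%), against 38.8% of all genes. The fitted tumour minus normal difference ranged from -0.63 to 0.48 over the members, with a median of -0.032 against 0.067 over all genes. Its SD over genes was 0.206 for the members and 0.670 for all genes.

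The median SE of the fitted difference was 0.137 for the members, against 0.136 for the 2962 genes whose mean level lay between the members' quartiles (5.81 and 6.84). Each SE combines 1 residual degree of freedom with a prior of 3.4 that follows the mean level. Near-equal SEs at a like level are thus largely set by the model and do not measure the members' own precision. Of those 2962 genes 20.9% passed the test, and the SD of their fitted differences was 0.703. The 95% interval of the fitted difference lay within 2-fold in either direction for 65 of the 66 members; the exception was Mrps31. A p that misses the threshold does not show that tumour and normal colon have the same level, and the fit has 1 residual degree of freedom.

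The genes called over the whole table depended on the scaling of the arrays. In place of 1331 risen and 992 fallen genes, there were 1088 and 1197 after quantile normalization, 1059 and 1225 after cyclic loess, and 1479 and 1515 with each array centred on its median. Members past the threshold remained few: 0 rose under each of these scalings, and the 2 that fell under each were Mrps31 and Mrpl12.

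**Figure D2:**
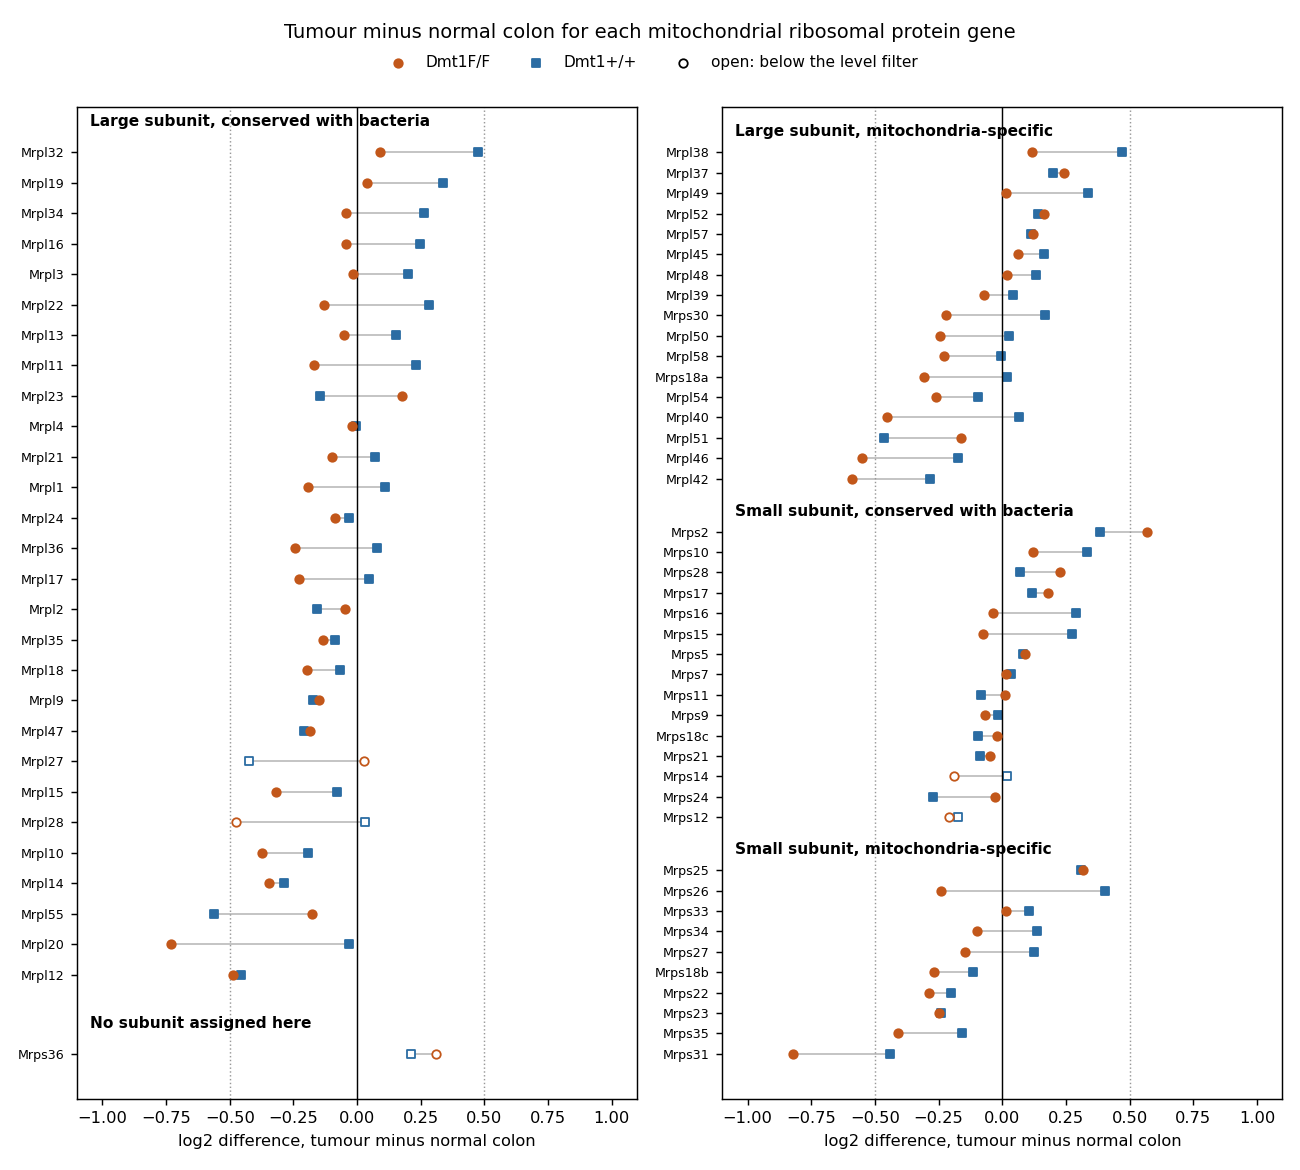
Log2 difference of tumour minus normal colon (x axis) for each of the 71 members, by subunit and by whether bacterial ribosomes have a counterpart, in Dmt1F/F (orange circles) and Dmt1+/+ mice (blue squares), 1 array pair each; dotted lines mark 0.5 and open symbols the 5 members below the level filter. Values of the members kept lie between -0.82 and 0.57, and the orange circle lies left of the blue square for 48 of the 66 members kept.

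Pair by pair, 60 of the 66 members (90.9%) stayed under 0.5 in all 4 comparisons of 2 arrays, compared with 51.3% of all genes. None of the 66 reached 2-fold in any of the 4 (0 members). Of all genes, 5.98% were at least 2-fold higher and 3.81% at least 2-fold lower in Dmt1F/F tumour than in normal colon, and 6.56% and 5.31% in Dmt1+/+ tumour. Between Dmt1F/F and Dmt1+/+ mice the shares were 0.713% higher and 0.904% lower in normal colon, and 1.7% and 0.506% in tumour. Each of these differences rests on 1 array per group and has no replicate check, so no test goes with it.

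The 4 members at an unadjusted p under 0.05 are named here after their values were seen, apart from Mrpl12. Mrps31, a mitochondria-specific protein of the small subunit, was at 6.68 in Dmt1F/F tumour against 7.50 in Dmt1F/F normal colon, and at 6.57 in Dmt1+/+ tumour against 7.01 in Dmt1+/+ normal colon. Both tumour arrays were below both normal arrays. The fitted difference was -0.63 (SE 0.15; 95% interval -1.03 to -0.23), with a limma adjusted p of 0.0528, just above the threshold.

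Mrpl12 encodes the counterpart of the bacterial L7/L12 stalk protein, through which translation factors are recruited, and the protein also binds the mitochondrial RNA polymerase. It was at 6.44 in Dmt1F/F tumour against 6.92 in Dmt1F/F normal colon, and at 6.29 in Dmt1+/+ tumour against 6.75 in Dmt1+/+ normal colon. The tumour arrays were again both lower, by 0.49 and 0.46, a nearly equal amount in the 2 genotypes. The fitted difference was -0.47 (SE 0.12; limma adjusted p 0.0620). A second probe set of Mrpl12 moved the same way, by -0.53 in Dmt1F/F and -0.47 in Dmt1+/+ mice, at levels below the filter on all 4 arrays.

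Mrpl42 is a mitochondria-specific member of the large subunit. It was at 6.50 in Dmt1F/F tumour against 7.09 in Dmt1F/F normal colon, and at 6.50 in Dmt1+/+ tumour against 6.79 in Dmt1+/+ normal colon. The tumour arrays did not overlap the normal ones, and the fitted difference was -0.44 (SE 0.14; limma adjusted p 0.0962).

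Mrps2, whose product is the counterpart of bacterial S2 in the small subunit, was the highest member by fitted difference. It was at 5.38 in Dmt1F/F tumour against 4.81 in Dmt1F/F normal colon, and at 5.14 in Dmt1+/+ tumour against 4.76 in Dmt1+/+ normal colon. Its fitted difference was 0.48 (SE 0.17; limma adjusted p 0.123). Mrps25, another small-subunit protein, had the nearest value, 0.31 (SE 0.12; limma adjusted p 0.135), and differed by 0.32 in Dmt1F/F and 0.31 in Dmt1+/+ mice.

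**Figure D3:**
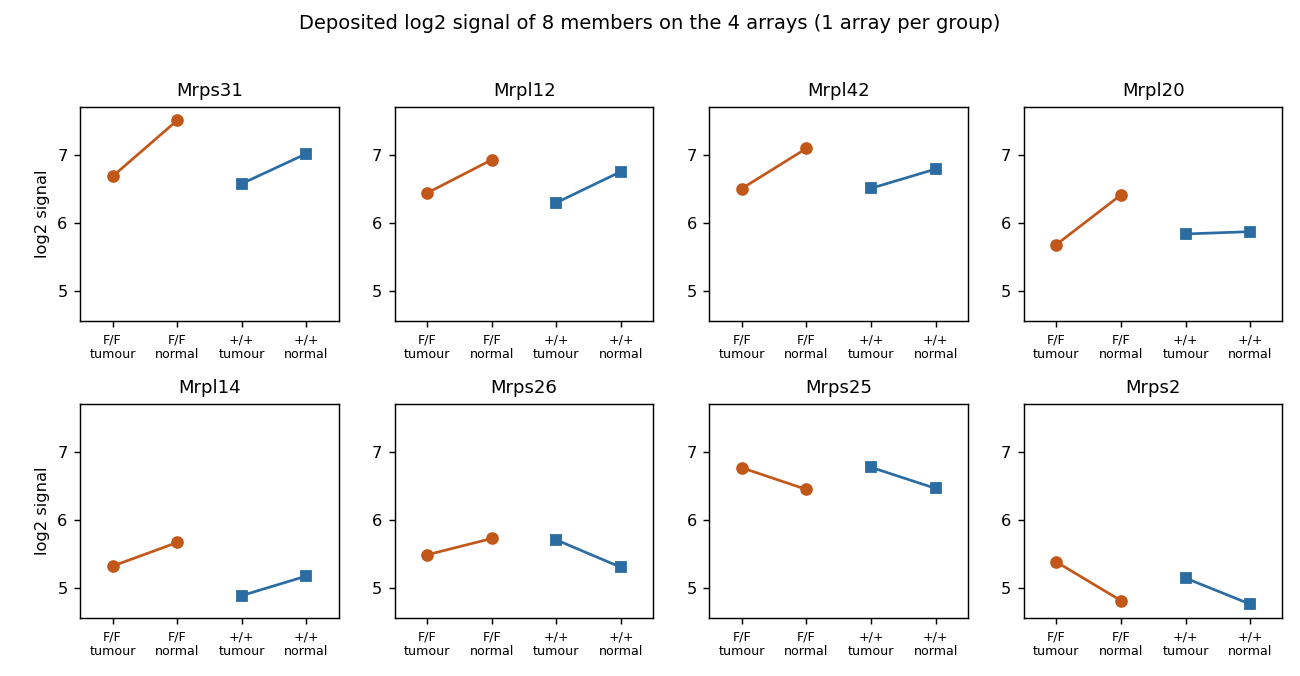
Deposited log2 signal (y axis, the same range in every panel) of 8 members on the 4 arrays, Dmt1F/F tumour and normal colon (orange circles) and Dmt1+/+ tumour and normal colon (blue squares), with a line joining the arrays of a genotype. Mrps31, Mrpl12 and Mrpl42 are lower in tumour in both genotypes, Mrps25 and Mrps2 are higher, and Mrps26 differs in sign, with -0.24 in Dmt1F/F and 0.40 in Dmt1+/+ mice.

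Both tumour arrays lay above both normal arrays for 12 of the 66 members, against 40.1% of all genes, and below both for 23, against 29.2% of all genes. For 31 members the tissues overlapped. The members with both tumours lower included Mrpl20 (-0.38), Mrpl55 (-0.37), Mrpl46 (-0.36) and Mrpl51 (-0.31), while those with both tumours higher included Mrpl38 (0.29), Mrpl32 (0.28) and Mrps10 (0.23), all as fitted differences that did not pass the test and all named after their values were seen.

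By structural class, the 26 large-subunit members with bacterial counterparts had a median fitted difference of -0.072, with both tumour arrays below both normal arrays for 11 and above for 2. Of all genes, 29.2% had both tumour arrays below and 40.1% had both above, the shares to set beside the counts of each class. The 17 mitochondria-specific large-subunit members had a median of -0.028, with 5 lower and 5 higher. In the small subunit, the 13 members with bacterial counterparts had a median of 0.085, with 2 lower and 3 higher, and the 10 mitochondria-specific members had a median of -0.10, with 5 lower and 2 higher. In none of the 4 classes did a member pass the test (0 rose and 0 fell in each).

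The 3 Mrps18 paralogs, whose products occupy different sites of the mitoribosome, moved little. Mrps18a, of the large subunit, was at 6.11 in Dmt1F/F tumour against 6.42 in Dmt1F/F normal colon, and at 6.18 in Dmt1+/+ tumour against 6.16 in Dmt1+/+ normal colon. Mrps18c, which takes the place of bacterial S18, was between 4.61 and 4.80 on all 4 arrays, close to the filter level. Mrps18b was at 6.66 against 6.93 in tumour and normal colon of Dmt1F/F mice and at 6.84 against 6.95 in those of Dmt1+/+ mice. Its second probe set, of similar level, moved the other way, with 6.91 against 6.55 and 6.65 against 6.39, so no direction can be given for this gene.

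Mrpl58, a peptidyl-tRNA hydrolase that resides in the large subunit and can release stalled chains, was at 6.94 in Dmt1F/F tumour against 7.17 in Dmt1F/F normal colon, and at 7.09 in both Dmt1+/+ tissues. The members with the highest mean signals, Mrpl24 (8.08) and Mrps15 (7.85), had fitted differences of -0.060 and 0.099. The lowest of those kept, Mrpl48 (4.66) and Mrps18c (4.69), had 0.077 and -0.060. Signals of different probe sets are not comparable as amounts of RNA.

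Within each genotype the balance of directions was not alike. In Dmt1F/F mice 47 of the 66 members were lower in tumour than in normal colon and 19 (28.8%) were higher. Of all genes, 53.3% were higher. The members' median difference was -0.093 against 0.039 over all genes. In Dmt1+/+ mice 29 members were lower and 37 (56.1%) higher, near the 56.7% of all genes that were higher. The members' median was 0.044 against 0.080 over all genes. After quantile normalization or cyclic loess the Dmt1+/+ median was -0.041 or -0.055, so its sign depends on the scaling, whereas the Dmt1F/F median was below 0 under all 3 scalings tried.

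At a difference of 0.5 or more, 1 member was higher in Dmt1F/F tumours, Mrps2 (0.57; 18.1% of all genes), and 4 were lower (12.9% of all genes). The 4 were Mrps31 (-0.82), Mrpl20 (-0.73), Mrpl42 (-0.59) and Mrpl46 (-0.55). In Dmt1+/+ tumours 0 members were higher by this size (21.3% of all genes) and 1 was lower (15.4% of all genes), Mrpl55 (-0.56). The single higher member in Dmt1F/F tumours became 0 under median centring, quantile normalization and cyclic loess. Under quantile normalization 8 members were lower in Dmt1F/F and 4 in Dmt1+/+ tumours, and under cyclic loess 7 and 4. These members are named as the ones past 0.5, after their values were seen. Mrpl20 and Mrps31 also met the rule for the largest genotype differences, which is itself a choice by value.

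The tumour difference was below 0 in both genotypes for 27 members and above 0 in both for 17, compared with 4111 and 5320 of all genes. It had opposite signs for 22 members and for 2623 of all genes. The Dmt1F/F difference was below the Dmt1+/+ difference for 48 of the 66 members and for 6908 of the 12060 genes. Of the 12060 genes, 5628 were lower in tumour than in normal colon in Dmt1F/F mice and 5220 in Dmt1+/+ mice. Among large-subunit members with bacterial counterparts, 23 of 26 were lower in Dmt1F/F tumour than in Dmt1F/F normal colon, against 14 of 26 in Dmt1+/+ mice. In the mitochondria-specific small-subunit class the counts were 8 of 10 and 5 of 10. In the small-subunit class with bacterial counterparts they were 6 of 13 and 5 of 13, and in the mitochondria-specific large-subunit class 10 of 17 and 5 of 17. This contrast between the genotypes is the residual of the fit and was not tested.

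Markers of several cell types differed between the genotypes in the same contrast, the Dmt1F/F minus the Dmt1+/+ tumour difference, whose median was -0.16 over the members and -0.055 over all genes. It was above 0 for 7 of 7 B and plasma cell markers, with a median of 2.66. Their summed linear signal was 1773 in Dmt1F/F tumour against 794 in Dmt1F/F normal colon, and 1217 in Dmt1+/+ tumour against 1516 in Dmt1+/+ normal colon. It was above 0 for 8 of 8 smooth muscle markers, with a median of 1.34 and sums of 3500.0 against 4781 in the Dmt1F/F tissues and 2257 against 7687 in the Dmt1+/+ tissues. It was below 0 for 7 of 7 neutrophil markers, with a median of -1.12 and sums of 177 against 85 in the Dmt1F/F tissues and 475 against 95 in the Dmt1+/+ tissues. It was above 0 for 6 of 6 distal colon markers, with a median of 0.82. Colon epithelium had 10 of 14 markers above 0 (median 0.36), fibroblasts 7 of 8 (0.48), endothelium 5 of 5 (0.39) and macrophages 5 of 7 (0.14). Adipocytes had 4 of 5 markers below 0 (-0.64), Wnt-driven tumour epithelium 5 of 9 (-0.24) and T and NK cells 4 of 6 (-0.037). Of all genes, 42.7% were above 0. The contrast was also below 0 for 24 of 28 ribosome biogenesis genes (median -0.18) and 35 of 46 cytosolic ribosomal proteins (-0.0635). It was below 0 for 14 of 19 mitochondrial aminoacyl-tRNA synthetases (-0.14) and 9 of 10 proliferation markers (-0.14). It was above 0 for 48 of 65 oxidative phosphorylation subunits (0.11) and 7 of 10 genes of mitochondrial DNA replication and transcription (0.13). The part of these markers and lists in the members' contrast was not tested.

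Mrpl20, a large-subunit protein with a bacterial counterpart, had the largest such contrast. It was at 5.68 in Dmt1F/F tumour against 6.41 in Dmt1F/F normal colon, but at 5.83 in Dmt1+/+ tumour against 5.87 in Dmt1+/+ normal colon. The Dmt1F/F normal array stood above the other 3 arrays. Mrps26, a mitochondria-specific small-subunit protein, was at 5.49 in Dmt1F/F tumour against 5.73 in Dmt1F/F normal colon, and at 5.70 in Dmt1+/+ tumour against 5.30 in Dmt1+/+ normal colon. Here the Dmt1+/+ normal array stood below the other 3. The contrast, Dmt1F/F minus Dmt1+/+, was -0.70 for Mrpl20 and -0.64 for Mrps26.

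Mrpl40 and Mrpl22 followed, with contrasts of -0.52 and -0.41. Mrpl40 was at 4.53 in Dmt1F/F tumour against 4.99 in Dmt1F/F normal colon, and at 4.85 against 4.78 in Dmt1+/+ tumour and normal colon. Mrpl22 was at 4.74 against 4.87 in the Dmt1F/F tissues and at 4.98 against 4.70 in the Dmt1+/+ tissues. Both genes lie near the filter level of 4.67.

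Between the genotypes, no member passed the test, and neither did any other gene. The same limma fit called 0 of 12060 genes (0% of all genes), and the lowest adjusted p was 0.506 over all genes and 0.585 over the members. At an unadjusted p under 0.05 there was 1 member, Mrpl14, against 991 of all genes (8.22%). In normal colon 46 members were higher and 20 lower in Dmt1F/F than in Dmt1+/+ mice, with a median difference of 0.082 against 0.038 over all genes. Of all genes, 56.3% were higher in this comparison. In tumours 22 members were higher and 44 lower, with a median of -0.083 against -0.023 over all genes. There 46.2% of all genes were higher.

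Mrpl14, the counterpart of bacterial L14 at the subunit interface, differed in the same direction and by a like amount in both tissues. It was at 5.32 in Dmt1F/F against 4.89 in Dmt1+/+ tumour, and at 5.67 in Dmt1F/F against 5.17 in Dmt1+/+ normal colon. Both Dmt1F/F arrays were above both Dmt1+/+ arrays. This was also so for other members, such as Mrps34 and Mrps9, while for Mrps7 and Mrps17, among others, both were below. The share of all genes separated in this way was not counted. Mrpl14 is singled out for its unadjusted p. The fitted genotype difference was 0.46 (SE 0.15; 95% interval 0.050 to 0.88), with a limma adjusted p of 0.585.

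In normal colon the other members with the largest genotype differences were higher in Dmt1F/F mice, Mrpl20 by 0.54, Mrps31 by 0.49 and Mrps34 by 0.43. Mrps34, a mitochondria-specific small-subunit protein, was at 5.79 in Dmt1F/F against 5.35 in Dmt1+/+ normal colon and at 5.69 against 5.49 in tumours. Of these Mrpl20 alone passed 0.5 upward in normal colon, where 5.93% of all genes did, and 0 members passed it downward, where 5.75% of all genes did. In tumours the largest after Mrpl14 were lower in Dmt1F/F mice, Mrpl36 by 0.32, Mrpl40 by 0.32 and Mrpl11 by 0.31, all large-subunit proteins. Past 0.5 in tumours there were 0 members upward (7.28% of all genes) and 0 downward (4.35% of all genes).

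**Figure D4:**
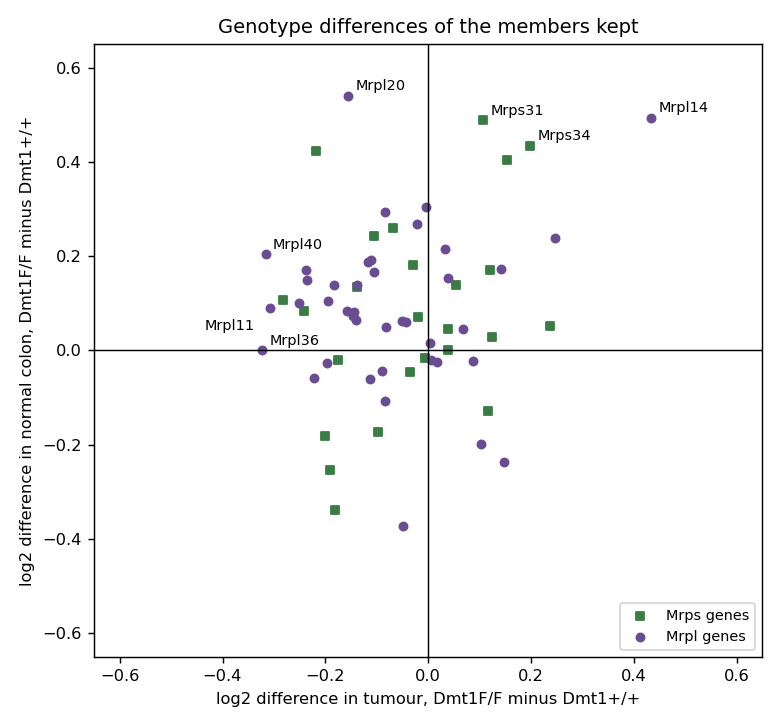
Log2 difference of Dmt1F/F minus Dmt1+/+ in tumour (x axis) against that in normal colon (y axis) for the 66 members kept, Mrps genes as green squares and Mrpl genes as purple circles. Mrpl14 lies apart at 0.43 and 0.49, and in the upper left are members lower in Dmt1F/F tumour and higher in Dmt1F/F normal colon than in the Dmt1+/+ tissues, such as Mrpl20 and Mrpl40.

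The other genes of mitochondrial translation had 0 calls in each list, where 11% of all genes rose and 8.23% fell. Some of these lists are too short for 0 calls to stand out from that share. Of 3 mitoribosomal proteins under other symbols, 0 rose and 0 fell; Ptcd3 differed by 0.17, Dap3 by 0.15 and Gadd45gip1 by -0.10. Of 23 mitoribosome assembly factors kept, 0 passed in either direction, with a median of 0.043. Noa1, a GTPase needed for small-subunit assembly, had the largest value at 0.47 (SE 0.14; limma adjusted p 0.0817), followed by Mettl17 (0.38) and the helicase Dhx30 (0.28), while the pseudouridine synthase homologue Rpusd3 had -0.27.

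Of 11 mitochondrial translation factors, 0 rose and 0 fell, against 11% and 8.23% of all genes, with a median of -0.086. The initiation factor Mtif3 was at 6.06 in Dmt1F/F tumour against 6.50 in Dmt1F/F normal colon, and at 5.84 in Dmt1+/+ tumour against 6.36 in Dmt1+/+ normal colon. Its fitted difference was -0.48 (SE 0.13; limma adjusted p 0.0670). Tufm, the elongation factor that delivers aminoacyl-tRNA, had -0.42 (SE 0.12; limma adjusted p 0.0756). The next in size were Taco1 (-0.32), an activator of translation of a cytochrome oxidase subunit, and the translocase Gfm1 (-0.28).

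Of 19 mitochondrial aminoacyl-tRNA synthetases and related enzymes, which charge the tRNAs, 0 passed in either direction, with Lars2 at -0.45 (SE 0.14; limma adjusted p 0.0939), Sars2 at 0.32, Cars2 at -0.24 and Qrsl1 at -0.23. Of 10 genes of mitochondrial DNA replication and transcription, 1 rose and 0 fell, near the shares of all genes, 11% risen and 8.23% fallen. The one that rose was Ssbp1, the single-stranded DNA binding protein of the replication fork, at 8.27 in Dmt1F/F tumour against 7.44 in Dmt1F/F normal colon and at 8.18 in Dmt1+/+ tumour against 7.58 in Dmt1+/+ normal colon. Its fitted difference was 0.72 (SE 0.12; limma adjusted p 0.0296). Mterf2 was next in size, at -0.54 (SE 0.19; limma adjusted p 0.112). The 10 protein-coding genes of mitochondrial DNA that were measured, which the mitoribosome translates, had fitted differences from -0.092 to 0.11 and 0 calls. Their signals lay between 9.74 (Nd6) and 12.56 (Nd4).

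Neighbouring programmes of the same arrays stood at other values. Of 65 nuclear-encoded oxidative phosphorylation subunits kept, 0 rose and 21 fell, with a median of -0.46, where 11% of all genes rose and 8.23% fell. Cox7b (-1.09), Uqcrfs1 (-0.87), Cox4i1 (-0.84) and Atp5k (-0.82) were the largest, and both tumour arrays were below both normal arrays for 59 of the 65, against 29.2% of all genes. Of 28 genes of cytosolic ribosome biogenesis, 15 rose and 0 fell, with a median of 0.61 and with Mybbp1a (1.21) and Nop56 (1.15) at the top. Of 46 cytosolic ribosomal proteins kept, 6 rose and 0 fell, with a median of 0.27, led by Rps26 (0.61) and Rps28 (0.59). Their share of rises, 13.0%, was near the 11% of all genes. Both tumour arrays were above both normal arrays for 36 of the 46, against 40.1% of all genes. The members' median of -0.032 lay between those of the oxidative phosphorylation subunits and the cytosolic ribosomal proteins; the difference between lists was not tested.

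**Figure D5:**
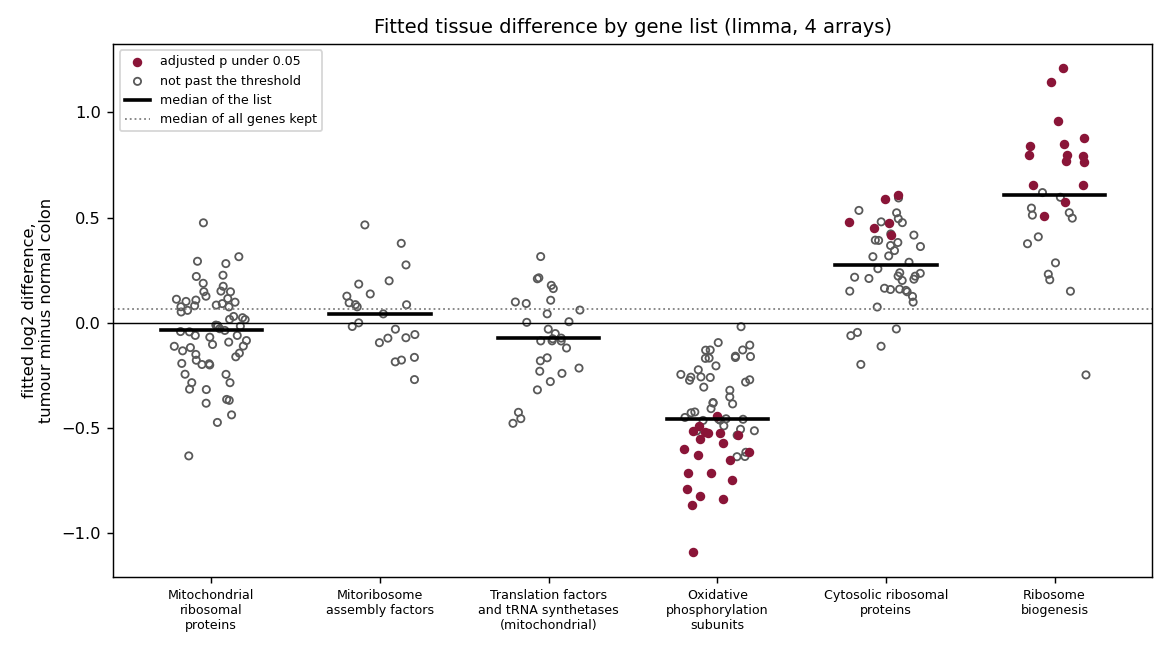
Fitted log2 difference of tumour minus normal colon (y axis, limma over 4 arrays) for each gene kept in 6 lists, filled where the adjusted p is under 0.05, with the list median as a black bar and the median of all genes as a dotted line. No mitochondrial ribosomal protein is filled (0 of 66), against 21 of 65 oxidative phosphorylation subunits and 15 of 28 ribosome biogenesis genes.

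By motif, among members kept with a window, the 20 with an ETS motif had a median fitted difference of -0.037 and the 37 without it -0.041. The 7 with an NRF1 motif had -0.091 and the 50 without it -0.039. The 8 with a YY1 motif had -0.097 and the 49 without it -0.028, and the 5 with an E-box had -0.084 and the 52 without it -0.032. The difference between members with and without a motif was not tested.

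Of the head-to-head partners that were protein-coding, kept and not members themselves, there were 15, of which 2 rose and 1 fell in tumours, a share near the 19.3% of all genes. Ncapd2, a condensin subunit whose start lies 614 bases from that of Mrpl51, rose by 0.71 (SE 0.12; limma adjusted p 0.0296), while Mrpl51 had a fitted difference of -0.31. Tcp1, a subunit of the cytosolic chaperonin next to Mrpl18, rose by 0.53 (SE 0.11; limma adjusted p 0.0420), while Mrpl18 had -0.13. Klc4, a kinesin light chain next to Mrpl2, fell by 1.09 (SE 0.13; limma adjusted p 0.0163), while Mrpl2 had -0.10. Ndufb5, a complex I subunit next to Mrpl47, had -0.46 (limma adjusted p 0.0710) beside -0.20 for Mrpl47. A second Mrpl47 probe set, below the level filter, differed by 0.31 in Dmt1F/F and -0.29 in Dmt1+/+ mice. A probe set shared by Actl6a and Mrpl47 was higher in tumour, by 0.35 in Dmt1F/F and 0.60 in Dmt1+/+ mice. Which gene carries its signal cannot be told. Mrpl46 and Mrps11, members that share a start region with each other, had -0.55 and 0.011 in Dmt1F/F mice and -0.18 and -0.083 in Dmt1+/+ mice. The partners named here are the 3 that passed, Ndufb5 and the member pair, chosen after their values were seen.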

How the data were processed

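The authors deposited 1 log2 signal per probe set and array, computed with oligo's RMA according to the submitters' processing notes, without versions. Per the labels' protocols, RNA was extracted with Trizol and 400 ng were labelled with biotin. RMA forces the probe intensities of the arrays to a common distribution, so differences in total signal are largely removed. The deposited probe set values still differed in their medians, from 4.27 in Dmt1F/F normal colon to 4.34 in Dmt1F/F tumour. RMA gives no error and no detection call for a single value, and the number of arrays limits the precision. Columns of samples outside the series numbered 0.

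Of 41345 probe sets, the platform's annotation gave 23521 exactly 1 gene, 1814 several and 16010 none; 23328 matched RefSeq (GRCm38.p6) and 193 kept the annotation's symbol. The probe set with the highest mean stood for a gene. Genes with a highest value of at least 4.67 were kept.

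One model with tissue and genotype as additive terms was fitted to all 4 arrays over 12060 genes with limma 3.58.1 in R 4.3.3 (eBayes with trend, Benjamini-Hochberg at 0.05). Its 1 residual degree of freedom is the tissue by genotype term, moderated by a prior of 3.4. Tumour and normal colon of a genotype could share animals, and p-values do not measure the spread between animals. Pairwise differences have no test and were counted at 0.5. No set test was run.

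Members named were the largest by genotype difference and by contrast (4 each), the 2 highest and 2 lowest in level, Mrps18a, Mrps18b, Mrps18c, Mrpl12 and Mrpl58; the part of the rule for members past the test named none. Other lists give up to 4 genes each. The members, lists and motifs were chosen with earlier results of these data known.

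Alternatives were other scalings, the mean of probe sets, other level filters, robust eBayes, no trend, no genotype term and a threshold of 1. Motif positions were found with Python 3.11.15.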

Additional observations from a re-analysis of the deposited data

Results flagged for a closer look

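The median tumour minus normal difference of the 66 members was -0.093 in Dmt1F/F mice and 0.044 in Dmt1+/+ mice, on opposite sides of 0, with 47 and 29 members lower in tumour. Of all 12060 genes, 5628 and 5220 were lower in tumour. The members' Dmt1+/+ median was below 0 after quantile normalization and cyclic loess. Each median rests on 1 array pair, and the difference between the genotypes was not tested.

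Mrps26 differed by -0.24 in Dmt1F/F tumour against normal colon and by 0.40 in Dmt1+/+ tumour against normal colon, a contrast of -0.64 that was likewise not tested.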

How the results depend on the processing

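No paired analysis was possible because each group has 1 array and the labels carry no replicate numbers; for the same reason no replicate could be left out. In place of 0 fallen members, 2 fell with each array centred on its median (Mrps31 -0.69, adjusted p 0.0226; Mrpl12 -0.53, 0.0398), 2 after quantile normalization (-0.72, 0.0382; -0.56, 0.0443) and 2 after cyclic loess (-0.72, 0.0388; -0.57, 0.0413). With the mean of a gene's probe sets 1 fell, and with robust eBayes 1, in both cases Mrps31 (-0.63), with limma adjusted p 0.0469 and 0.0456. Risen members stayed at 0 under every alternative run. Of all genes, 1515 fell with median centring and 651 without the genotype term, against 992. Quantile normalization moved the median of the members' fitted differences to -0.15, and that in Dmt1F/F mice to -0.21. Members past 0.5 in Dmt1F/F tumours numbered 0 higher after median centring, quantile normalization and cyclic loess, with 8 lower after quantile normalization and 7 after cyclic loess; in Dmt1+/+ tumours 4 were lower after either of the last. In normal colon, members higher in Dmt1F/F numbered 3 after median centring and 2 after either of the others. At a threshold of 1 each of these counts was 0. The cause of these shifts was not tested. Of the main counts and medians recomputed, 147 stayed within their limits and 23 moved. Of the values for single genes and offsets from all genes, 88 stayed and 8 newly passed the threshold, those of Mrps31 and Mrpl12 above. No value past a threshold changed sign (0 reversed), but some small ones did. The Dmt1+/+ median of members was -0.041 and -0.055 after quantile normalization and cyclic loess, and its offset from all genes, -0.036, was 0.034 without the level filter. The members' median fitted genotype difference, -0.0031, lay between 0.0020 and 0.014 under the 3 scalings and without the filter. The all-gene median fitted tissue difference, 0.067, was -0.025, -0.019 and -0.019 after quantile normalization, after cyclic loess and without the filter.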

Other observations

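The annotation assigns 13 probe sets to a mitoribosomal gene together with another gene. Some of these name members that also have a probe set of their own, Mrpl19, Mrpl47, Mrps27 and Mrps34, and 7 genes outside the 71, Mrpl30, Mrpl33, Mrpl41, Mrpl43, Mrpl44, Mrpl53 and Mrps6, appeared on such probe sets alone. The probe set of Mrps6 and Slc5a3 was at 7.30 in Dmt1F/F tumour against 7.25 in Dmt1F/F normal colon, and at 7.04 in Dmt1+/+ tumour against 7.65 in Dmt1+/+ normal colon, so it was lower in Dmt1+/+ tumour alone, by 0.62. The probe set of Babam2 and Mrpl33 was at 7.65 against 7.08 in the Dmt1F/F tissues and at 7.67 against 7.23 in the Dmt1+/+ tissues, higher in tumour in both genotypes. That of Mrpl43 and Twnk, the mitochondrial DNA helicase, was between 5.82 and 6.11 on all 4 arrays. Which gene of a pair carries the signal cannot be told from these values.

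Of the 9 members with 2 probe sets of their own, the sets had the same sign in both genotypes for 2, Mrpl12 and Mrps5, and in 6 cases the second set lay below the level filter on all 4 arrays. The second sets of Mrps16, Mrps18b and Mrps18c reached it, that of Mrps18c only just, and none of the 3 matched its first set in sign in both genotypes. Mrps16 differed by -0.26 in Dmt1F/F and -0.20 in Dmt1+/+ mice on its second set, against -0.035 and 0.29 on its first.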
